A study of Mus musculus with 66 samples.

Results

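The 4 membrane-bound mucin genes Muc1, Muc4, Muc13 and Muc20 were followed through dextran sulfate sodium (DSS) colitis in mouse large bowel. They were chosen by gene symbol, and the estimates of their 15 deposited transcripts (3 for Muc1, 8 for Muc4, 2 for Muc13 and 2 for Muc20) were summed to 1 value per gene and sample, out of 30452 genes in all. Bulk messenger RNA was sequenced from 66 samples of 19 C57BL/6 mice, bought at 6 weeks of age. DSS, a sulfated polysaccharide that injures the colonic epithelium, was given at 3% for 6 days from experimental day 0. Each mouse gave a mid-colonic, a rectal and an anal section with the muscle layer removed. Mice 1 to 4 were uninjured (day 0), and 3 mice each were dissected on days 3, 6, 9, 14 and 20. From the mice of days 9, 14 and 20 a section of squamous neo-epithelium, the squamous lining that the study distinguished from rectum and anus, was also taken. All animals were of the same strain, none carried a genetic change in the labels, and the groups differ by section and by day of the DSS course. Day 3 fell within DSS exposure, day 6 at its end, and days 9, 14 and 20 after it.

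Membrane-bound mucins are long, heavily O-glycosylated proteins held in the apical membrane of epithelial cells by a single transmembrane segment, with a short tail in the cytoplasm. Together they build the glycocalyx, the coat between the cell and the secreted mucus gel that is made of Muc2. MUC13 is one of the main glycocalyx mucins of intestinal absorptive cells. MUC1 is present on many glandular epithelia and its tail can be phosphorylated and can bind beta-catenin. MUC4 carries epidermal growth factor-like domains and can bind the receptor ERBB2, and MUC20 has been linked to the hepatocyte growth factor receptor MET. The deposited values are TPM, transcript abundances scaled for transcript length and to the same sum in every sample, so that levels can be compared between genes. Because the sum is fixed, a larger share of some transcripts lowers the values of the rest. Mitochondrial transcripts made up 6.26% to 28.5% of the sum in a sample, and their part in the differences was not tested. Changes below are log2 differences of TPM + 1 from limma, with the standard error (SE), and a gene was called at a Benjamini-Hochberg adjusted p under 0.05 over all genes tested. The 3 sections of a mouse share that mouse, and all comparisons with day 0 within a section share the same 4 uninjured mice.

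In the mouse genome build GRCm38 (mm10), Muc1 lies on chromosome 3 at chr3:89229057-89233381 on the plus strand. The other members lie close together on chromosome 16: Muc4 at chr16:32735886-32782391 (plus strand), Muc20 at chr16:32777419-32797435 (minus strand) and Muc13 at chr16:33794037-33819934 (plus strand). All are annotated as protein coding. Muc4 and Muc20 run towards each other, and their 3' ends overlap by 4973 bases. In the colon Muc1 and Muc13 changed together, and in the anus Muc4 and Muc20 did. These pairs were not exclusive. In the 19 anal samples Pearson's r of log2 values was 0.756 for Muc1 with Muc4 and 0.786 for Muc1 with Muc20, but 0.0323 for Muc1 with Muc13. In the 19 rectal samples it was 0.786 for Muc1 with Muc13 and 0.764 for Muc4 with Muc20. For this comparison the 250 bases upstream of each gene's RefSeq start (GRCm38.p6) are shown. They are written 5' to 3' on the gene's strand, at chr3:89228806-89229055 for Muc1, chr16:33793787-33794036 for Muc13, chr16:32735636-32735885 for Muc4 and chr16:32797436-32797685 for Muc20. Capitals mark matches to 6 short motifs searched on both strands.
Muc1: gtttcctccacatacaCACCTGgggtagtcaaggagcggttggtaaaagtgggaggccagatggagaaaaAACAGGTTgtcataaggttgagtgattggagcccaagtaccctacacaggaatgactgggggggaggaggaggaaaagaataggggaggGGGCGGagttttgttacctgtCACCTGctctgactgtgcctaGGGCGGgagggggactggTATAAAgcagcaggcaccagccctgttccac
Muc13: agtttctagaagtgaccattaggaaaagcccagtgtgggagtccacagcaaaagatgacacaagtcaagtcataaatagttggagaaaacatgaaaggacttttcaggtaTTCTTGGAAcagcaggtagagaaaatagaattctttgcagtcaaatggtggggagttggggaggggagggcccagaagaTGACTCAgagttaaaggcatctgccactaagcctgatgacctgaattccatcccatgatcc
Muc4: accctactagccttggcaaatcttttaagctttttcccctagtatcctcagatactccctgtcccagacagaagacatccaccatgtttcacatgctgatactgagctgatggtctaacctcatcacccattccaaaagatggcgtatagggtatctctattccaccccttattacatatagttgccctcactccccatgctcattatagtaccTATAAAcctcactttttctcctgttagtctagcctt
Muc20: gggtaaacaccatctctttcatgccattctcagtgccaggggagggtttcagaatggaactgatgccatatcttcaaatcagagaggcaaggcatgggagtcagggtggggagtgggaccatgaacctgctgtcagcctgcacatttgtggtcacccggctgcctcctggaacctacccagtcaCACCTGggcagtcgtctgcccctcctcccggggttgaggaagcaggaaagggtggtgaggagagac
The Muc13 window shown holds a STAT-type palindrome (TTCNNNGAA, written TTCTTGGAA here, starting 140 bases before the start) and an AP-1-type element (TGANTCA, written TGACTCA). Of 32851 RefSeq promoter windows of this length, 7.0% hold the first motif and 6.7% the second. Muc13 has another RefSeq start, with its window at chr16:33794239-33794488, which is not shown. That window holds an AP-1-type match (TGAGTCA) and no other of the 6 motifs. The Muc1 window holds a TATA box (TATAAA, in 12.4% of windows), 2 GC boxes (GGGCGG, in 32.7%), 2 E boxes of the type bound by Snail factors (CAGGTG, read here on the other strand, in 17.2%) and a Grainyhead-type match (AACNGGTT, in 1.8%). The Muc4 window holds a TATA box, and the Muc20 window a Snail-type E box. No motif of the 6 is shared between the Muc4 and Muc20 windows, nor between those of Muc1 and Muc13. The Muc1 window shares the TATA box with that of Muc4 and the Snail-type E box with that of Muc20. These are matches of letters and not shown binding sites.

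TPM values keep no record of sequencing depth, so the depth behind each value is unknown. Between 11268 and 13789 genes reached 1 TPM per sample. The sections carried the markers of their labels: in uninjured mice the summed level of 6 colonocyte markers had a median of 9130 TPM in mid-colon, 7185 TPM in rectum and 770 TPM in anus, and that of 7 squamous markers (keratins and others) was 5.27, 78 and 12054 TPM. Uninjured anus therefore held glandular transcripts beside squamous ones. It also held skeletal muscle transcripts, with a median sum of 2813 TPM over 4 genes. In these bulk samples, fewer cells of a type and less RNA per cell cannot be told apart.

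Muc13 was by far the most abundant member in the glandular bowel (shown in the plots of all samples by day). At day 0 it stood at 1506, 1808, 1642 and 1476 TPM in the mid-colon of mice 1 to 4 and at 1495, 1690, 1772 and 1661 TPM in their rectum. It made up 98.3% of the summed TPM of the 4 genes in mid-colon and 98.6% in rectum. Muc1 had 16.5, 15.7, 15.7 and 9.16 TPM in mid-colon and 12.7, 19.1, 12.4 and 7.73 TPM in rectum. Muc4 was of the same order, at 12.7, 14.8, 17.6 and 8.67 TPM in mid-colon and 10.6, 8.29, 12.0 and 8.68 TPM in rectum. Muc20 was below 0.3 TPM in each of these 8 samples. In the comparison of uninjured rectum with mid-colon, 0 of the 3 members tested were called, where 1.79% of all genes tested were (limma), and the ranges of each member overlapped between these sections. At an unadjusted p under 0.05 the count was also 0.

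**Figure D1:**
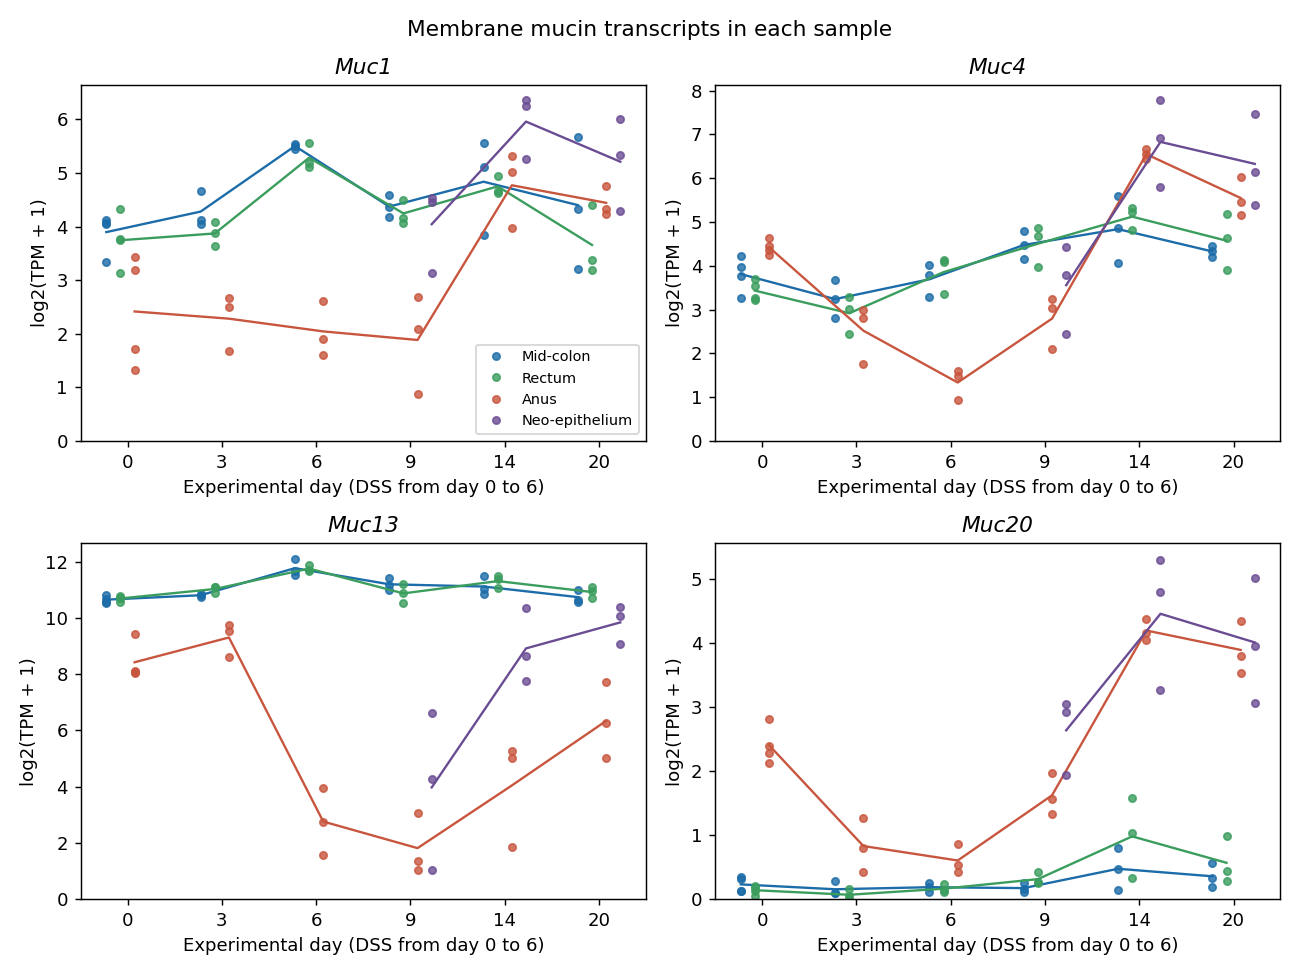
Level of each membrane mucin in each of the 66 samples, as log2(TPM + 1), by experimental day; points are samples, coloured by section, and lines join the means of the log2 values. Muc13 in mid-colon and rectum is at or above 1476 TPM in every sample, whereas in anus its mean falls from 376 TPM at day 0 to 3.34 TPM at day 9.

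The anal section had a different composition of membrane mucins from rectum already without injury. Muc13 was at 264, 269, 279 and 691 TPM, below every rectal sample, and its mean was 4.40-fold lower (limma log2 difference -2.27, SE 0.28, adjusted p = 1.03e-04). Muc20 was at 6.00, 3.86, 4.25 and 3.36 TPM, above every rectal sample, which reached at most 0.155 TPM, and its mean was 42.2-fold higher. No test is given for Muc20 between anus or neo-epithelium and the colonic sections, since it passed the filter on low values only through the section in which it is high. Muc4 was at 19.7, 23.8, 20.8 and 17.9 TPM and its mean was 2.08-fold higher than in rectum, with no overlap (log2 difference 0.99, SE 0.16, adjusted p = 5.08e-04). Muc1 was uneven between anal samples, at 2.30, 8.12, 1.52 and 9.74 TPM, and overlapped with rectum. Its fit gave a log2 difference of -1.33 (SE 0.47, adjusted p = 0.0311), a call that was lost when mouse 1, 2 or 3 was left out (adjusted p up to 0.138) and with no filter (0.0714). Thus 3 of the 3 other members were called, where 60.3% of all genes tested were. Against mid-colon these 3 were called as well, where 54.1% of genes were: Muc13 at -2.22, Muc1 at -1.48 and Muc4 at 0.61 (limma log2 differences). Muc20 in mid-colon was at most 0.278 TPM. The Muc4 call against mid-colon had an adjusted p of 0.0349, became 0.0575 with the mouse as a block and 0.149 with all samples in 1 fit, and was lost without mouse 1, 2 or 3 (up to 0.127). The Muc1 call against mid-colon was lost without mouse 1 or 3 (adjusted p up to 0.0934). Anal mouse 4 had the highest Muc13, Muc1 and the lowest Muc4 and Muc20 of the 4, and without it the Muc13 difference from rectum was -2.60.

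**Figure D2:**
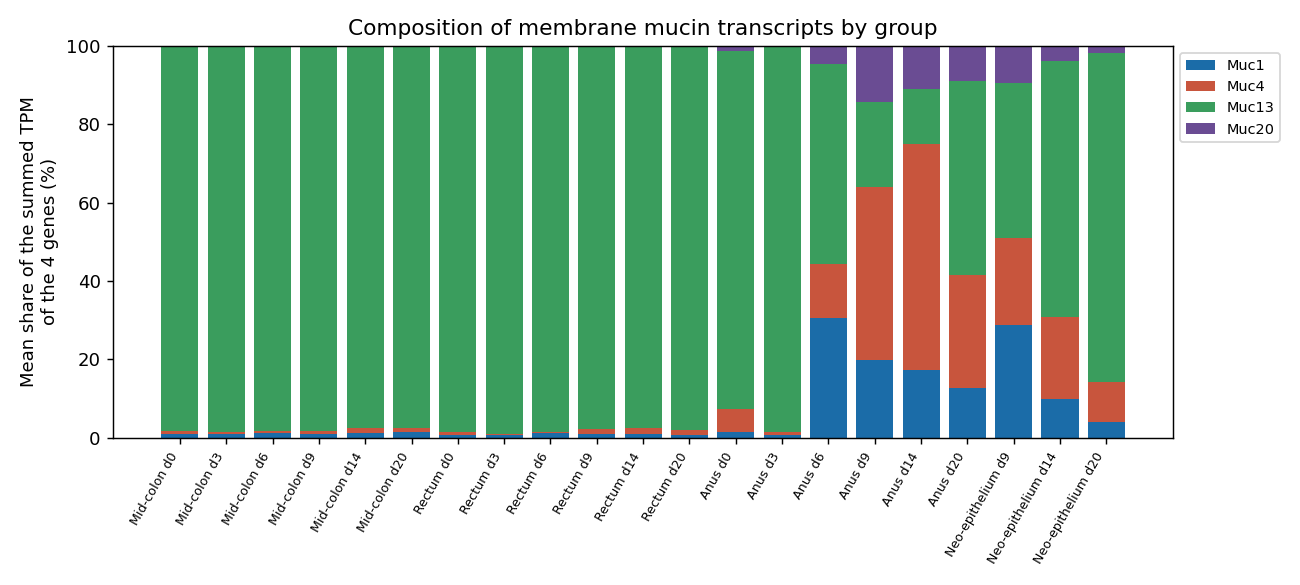
Mean share of each gene in the summed TPM of the 4 membrane mucins, by section and day (d), in percent; bars are group means over 3 or 4 samples. Muc13 makes up 97.45% in mid-colon at day 14 and more in every other mid-colonic and rectal group, but 14.1% in anus at day 14, where Muc4 makes up 57.8%.

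During DSS exposure Muc13 and Muc1 rose together in mid-colon and rectum, with the peak at day 6. In mid-colon at day 6 Muc13 was at 3273, 2944 and 4391 TPM, above every uninjured sample, and its mean was 2.20-fold that of day 0 (log2 difference 1.12, SE 0.15, limma adjusted p = 0.00209). Muc1 was at 44.5, 45.8 and 42.8 TPM, again above every uninjured sample, with a mean 3.12-fold that of day 0 (log2 difference 1.61, SE 0.20, adjusted p = 0.00172). The mid-colonic day 6 samples were close to each other in Muc1, with an SD of 1.51 TPM. Muc4, at 15.1, 8.76 and 12.7 TPM, lay within the uninjured range (log2 difference -0.12, SE 0.25, adjusted p = 0.752). Of the 3 members tested 2 were called, where 14.9% of all genes tested were and the median gene was at -0.24 (log2).

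The rectum gave nearly the same values at day 6. Muc13 was at 3750, 3273 and 3334 TPM, a mean 2.09-fold that of day 0 (log2 difference 1.06, SE 0.09, limma adjusted p = 1.79e-04). Muc1 was at 33.7, 46.2 and 35.2 TPM, a mean 2.95-fold that of day 0 (log2 difference 1.54, SE 0.25, adjusted p = 0.00229). Neither overlapped with the uninjured rectum, and both calls held whichever mouse was left out. With all 66 samples in 1 fit, where the spread of anal and neo-epithelial samples is pooled in, the Muc13 SE was 0.69 and its call was lost in rectum (adjusted p = 0.222) and in mid-colon (0.229), while Muc1 kept both. Muc4 was at 16.6, 9.19 and 15.9 TPM and was not called (log2 difference 0.42, SE 0.21, adjusted p = 0.127), though it was without mouse 9 (adjusted p = 0.0144), with trimmed-mean scaling (0.68, adjusted p = 0.0326) and on its most abundant transcript alone (0.00762). Thus 2 of the 3 members tested were called in rectum, where 48.7% of all genes tested were and the median gene was at -0.27. The rectal and the mid-colonic responses were compared directly: the difference at day 6 was -0.06 (SE 0.18) for Muc13, -0.07 (SE 0.35) for Muc1 and 0.54 (SE 0.35) for Muc4. Here 0 of the 3 members were called, as were 0% of all genes tested, and the count of members at an unadjusted p under 0.05 was 0 as well.

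**Figure D3:**
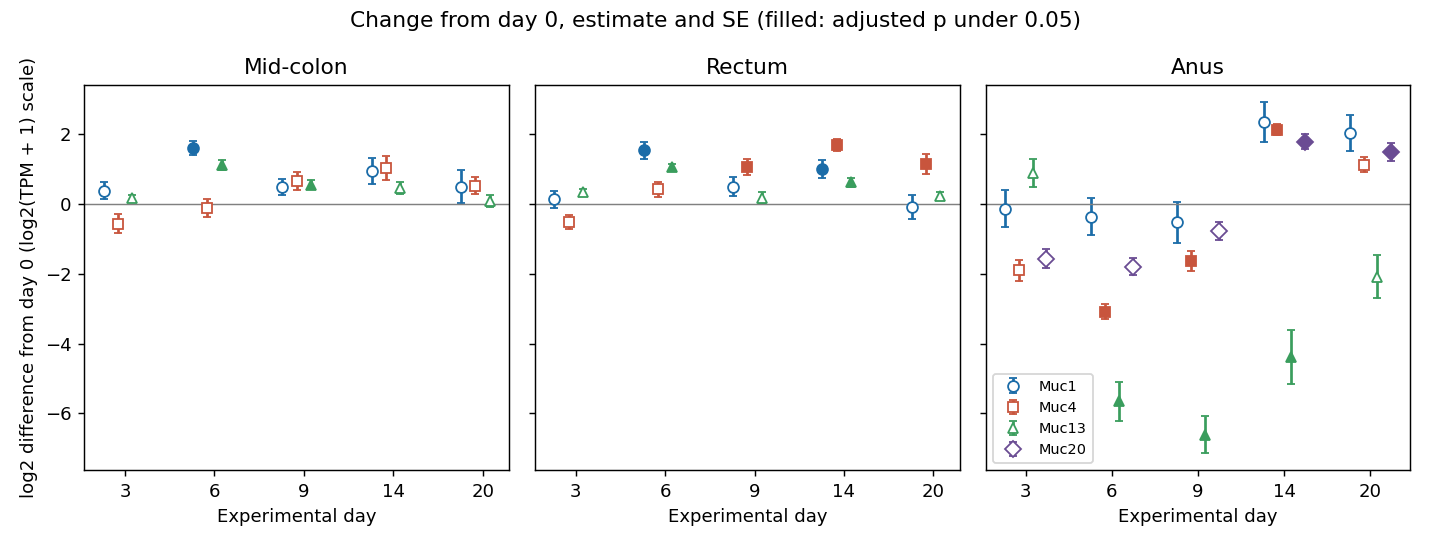
Difference of each member from day 0 on the log2(TPM + 1) scale by day in mid-colon, rectum and anus; points are limma estimates, bars are SE, and filled points passed an adjusted p of 0.05. Muc20 is shown in anus and not in the other 2 sections, and its points of days 3 and 6 are open because no test is given there. Muc4 in anus at day 6 is drawn filled, although no test is given for it in the text. Muc13 is at 1.06 in rectum and at -5.66 in anus on day 6.

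On the days on either side of this peak few members were called. At day 3 Muc13 was at 1829, 1814 and 1722 TPM in mid-colon and at 2216, 2178 and 1876 TPM in rectum. The rectal samples were all above the uninjured ones, but the difference of 0.34 (SE 0.09) had an adjusted p of 0.0644 in limma, and it was called only without mouse 7 (adjusted p = 0.0255). At day 3, 0 of the 3 members were called in mid-colon (0.375% of all genes) and 0 of 3 in rectum (6.62%), with 0 and 2 at an unadjusted p under 0.05. At day 9, after DSS, Muc13 in mid-colon was at 2702, 2043 and 2326 TPM, still above the uninjured samples (log2 difference 0.55, SE 0.13, adjusted p = 0.00803), the call made for 1 of 3 members where 43.4% of genes were called. That call was lost with trimmed-mean scaling (0.38, adjusted p = 0.116) and with all samples in 1 fit (0.538). Muc4 there was at 16.7, 26.9 and 21.1 TPM (0.66, SE 0.25, adjusted p = 0.0538) and was called without mouse 3 or 11 (down to 0.0344), with a filter of 5 TPM (0.0476) and with trimmed-mean scaling (0.0308). Muc13 in rectum was at 2351, 1480 and 1881 TPM, which overlapped with the uninjured samples (log2 difference 0.18, SE 0.15, adjusted p = 0.356; called without mouse 12, at 0.0437). The difference between these responses was not called (-0.37, SE 0.21, adjusted p = 0.378), 0 of 3 members being called, also at an unadjusted p under 0.05, where 6.55% of genes were. Muc1 at day 9 was at 19.7, 22.9 and 17.0 TPM in mid-colon and 15.8, 16.9 and 21.7 TPM in rectum, and was called in neither (adjusted p = 0.115 and 0.137; in rectum called without mouse 2, at 0.0347).

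The other absorptive cell transcripts were uneven at day 9. The summed colonocyte markers of rectum had a median of 7185 TPM at day 0 and 2723 TPM at day 9, and those of mid-colon 9130 and 2907 TPM. Within this sum in rectum, the group means of the transport genes Slc26a3 (1172 and 70.4 TPM) and Aqp8 (1010.0 and 87.0 TPM) and of the carbonic anhydrase Car1 (3940 and 1152 TPM) were lower at day 9, while those of Krt20 (666 and 816 TPM) and Cdh17 (360.1 and 388 TPM) were not. Muc3, the other abundant membrane mucin of mouse colon, was at a mean of 4431 TPM in uninjured rectum and fell by 1.34 on the log2 scale at day 9 (limma, adjusted p = 3.60e-04), while its difference was 0.11 at day 6 (adjusted p = 0.630). The neutrophil markers of rectum rose over the same days, from a median sum of 2.94 TPM to 12578 TPM at day 9, and the part of this in the mucin values was not tested. Set against E-cadherin (Cdh1), a gene of all epithelial cells, the ratio of Muc13 to Cdh1 in rectum was 5.20 ± 0.777 (SD, n = 4) at day 0, 13.3 ± 1.97 (n = 3) at day 6 and 7.27 ± 1.43 (n = 3) at day 9. That of Muc1 was 0.0403 at day 0 and 0.146 at day 6, so that both ratios were higher at day 6. Cdh1 itself was at 275, 294 and 222 TPM in rectum at day 6 and at 357, 311, 345 and 275 TPM at day 0. Its part in the ratios was not tested.

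At days 14 and 20 the rectum showed a different member at its highest. Muc4 had been at 8.81, 4.41 and 7.11 TPM in rectum at day 3. It was at 14.7, 24.6 and 28.1 TPM at day 9 (limma log2 difference 1.07, SE 0.23, adjusted p = 0.00400) and at 27.4, 38.9 and 36.3 TPM at day 14 (1.69, SE 0.17, adjusted p = 0.00411). At day 20 it was at 23.6, 35.5 and 14.0 TPM (1.14, SE 0.28, adjusted p = 0.0482). All samples of days 9, 14 and 20 exceeded every uninjured rectal sample. The most abundant transcript alone, Muc4-202, missed the threshold at day 9 (0.92, adjusted p = 0.0526). The call of day 20 was fragile, as it was lost without any 1 of mice 1, 2, 3, 4, 17 or 18 (adjusted p up to 0.124), with no filter (0.102), with all samples in 1 fit (0.0603) and on Muc4-202 alone (0.0672). The ratio of Muc4 to Cdh1 in rectum rose in step, from 0.0307 at day 0 to 0.144 at day 14. Squamous markers in rectum had median sums of 78, 122, 702 and 340 TPM on days 0, 9, 14 and 20. Their samples spread widely, from 12.9 to 123 TPM at day 0, 101 to 742 TPM at day 9, 24.6 to 988 TPM at day 14 and 7.66 to 572 TPM at day 20. Mouse 14 had the 24.6 TPM, beside 27.4 TPM of Muc4. The part of squamous cells in the Muc4 values was not tested.

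Muc1 in rectum was at 23.8, 29.9 and 24.5 TPM at day 14 and at 9.37, 20.3 and 8.10 TPM at day 20. The day 14 difference of 1.00 (SE 0.26, limma adjusted p = 0.0383) was lost without any 1 of mice 1, 3, 4, 15 or 16 (adjusted p up to 0.113), with no filter (0.0746) and on the most abundant transcript alone (0.0691). Muc13 at day 14 was at 2643, 2858 and 2152 TPM (0.62, SE 0.12, adjusted p = 0.0186), a call lost without mouse 1, 2 or 3 (up to 0.0613). With all samples in 1 fit neither was called (adjusted p = 0.141 for Muc1 and 0.595 for Muc13). Counted by day in rectum, 1 of 3 members was called at day 9 (53.5% of genes), 3 of 3 at day 14 (15.8%) and 1 of 3 at day 20 (7.68%). In mid-colon at these later days the replicates spread widely. At day 14 Muc1 was at 13.4, 46.2 and 33.5 TPM, and at day 20 at 19.0, 50.1 and 8.21 TPM. Muc4 in mid-colon was at 15.7, 47.2 and 28.0 TPM at day 14, mouse 14 being the lowest in both genes, and of the mice left out in turn only that one gave a call of either gene (adjusted p = 0.0229 for Muc4 and 0.0119 for Muc1). Muc4 was also called with trimmed-mean scaling (adjusted p = 0.0393) and on its most abundant transcript alone (0.0461). In mid-colon 0 of 3 members were called at day 14 (4.36% of genes) and 0 of 3 at day 20 (1.56%), with 3 and 0 at an unadjusted p under 0.05. At day 20 Muc4 was at 19.3, 17.3 and 20.8 TPM, and Muc13 at 1516, 2048 and 1600 TPM. From day 9 to day 20, 0 of 3 members were called in rectum (20.8% of genes) and 0 of 3 in mid-colon (20.6%). In the comparison of rectal and mid-colonic responses at day 20, 0 of 3 members were called (0.00756% of genes). The counts at an unadjusted p under 0.05 were 0 in these 3 comparisons.

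In the anus the course was the opposite for Muc13. At day 3 it was at 862, 390 and 745 TPM, overlapping with the uninjured 264 to 691 TPM. At day 6 it was at 14.7, 1.95 and 5.74 TPM, and at day 9 at 1.03, 7.44 and 1.55 TPM, far below every uninjured sample. The mean was 50.4-fold lower at day 6 and 112-fold lower at day 9 (limma log2 differences -5.66, SE 0.55, adjusted p = 5.78e-04, and -6.61, SE 0.52, adjusted p = 2.11e-04). It was still low at day 14, with 37.1, 31.4 and 2.64 TPM (-4.38, SE 0.78, adjusted p = 0.0213; lost without mouse 2, at 0.0644, and with no filter, at 0.0664), and at day 20 it was at 212, 31.7 and 75.1 TPM, all below the uninjured range but not called (-2.08, SE 0.61, adjusted p = 0.128; called without mouse 17, at 0.0457, and with all samples in 1 fit, at 0.033). The summed colonocyte markers of anus moved with it: their medians over days 0, 3, 6, 9, 14 and 20 were 770, 2120, 17, 22, 92 and 390 TPM. Goblet markers had medians of 1206 TPM at day 0 and 77 TPM at day 6, and Muc3 had group means of 558, 10.2 and 3.10 TPM on days 0, 6 and 9. The part of the amount of glandular tissue in the Muc13 values was not tested, and sections with less glandular tissue cannot be told apart here from glandular cells with less Muc13.

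**Figure D4:**
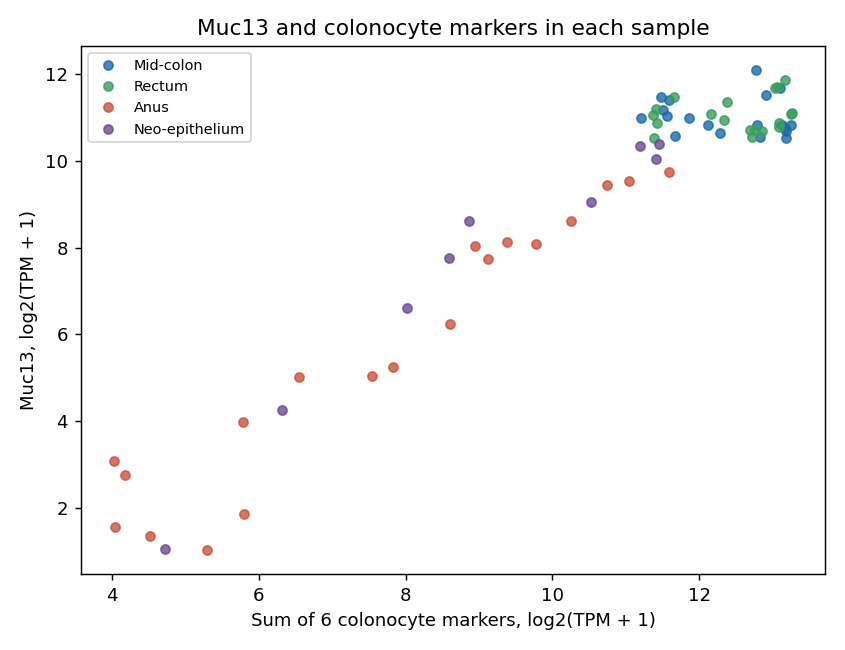
Muc13 against the sum of 6 colonocyte markers in each of the 66 samples, both as log2(TPM + 1), coloured by section. Anal samples run from the lower left (days 6 and 9, at 1.03 to 14.7 TPM of Muc13) to the middle (days 0 and 3), and mid-colonic and rectal samples sit at the upper right.

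Muc4 in the anus first fell and then rose above its starting level. Against 17.9 to 23.8 TPM at day 0 it had 5.95, 2.40 and 6.96 TPM on day 3. On day 6 it had 1.80, 0.900 and 2.02 TPM, and by day 9 the values were 8.43, 3.31 and 7.21 TPM. None of these overlapped with day 0. The day 3 difference of -1.90 (SE 0.30) was not called (limma adjusted p = 0.142, but 0.00945 with all samples in 1 fit). That of day 9 was called (-1.63, SE 0.28, adjusted p = 0.0121). At day 6 the mean was 13.1-fold lower. No test is given for day 6, since Muc4 passed the filter on low values there through the day 0 samples. At day 14 Muc4 was at 99.8, 86.0 and 92.4 TPM, a mean 4.51-fold that of day 0 and 59.0-fold that of day 6 (against day 0, 2.13, SE 0.15, adjusted p = 0.00102). At day 20 it was at 42.9, 64.2 and 34.7 TPM, again all above day 0, with a difference of 1.13 (SE 0.22) that just missed the threshold (adjusted p = 0.0527; 0.0486 with a filter of 5 TPM).

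Muc20 took the same course at a lower level. Its values were 0.748, 0.335 and 1.40 TPM on day 3, then 0.809, 0.344 and 0.444 TPM on day 6 and 1.96, 1.52 and 2.91 TPM on day 9, all below the 3.36 to 6.00 TPM of day 0. At day 14 it was at 16.8, 15.5 and 19.7 TPM and at day 20 at 10.6, 19.2 and 12.9 TPM, all above day 0. It was called at day 14 (log2 difference by limma 1.79, SE 0.21, adjusted p = 0.00772) and day 20 (1.49, SE 0.26, adjusted p = 0.0399), and not at day 9 (-0.78, adjusted p = 0.125). At days 3 and 6 it passed the filter through the day 0 samples, so no test is given, and its mean at day 6 was 8.20-fold lower than at day 0. The call of day 20 was lost without any 1 of mice 2, 3, 4, 18 or 19 (up to 0.157), with no filter (0.0757) and with trimmed-mean scaling (0.0593). Since the level is low and 1 TPM is added before the logarithm, these differences understate the change in TPM, whose mean was 3.97-fold that of day 0 at day 14.

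Muc1 in the anus stayed low through day 9, at 2.18, 4.68 and 5.37 TPM (day 3), 2.73, 2.06 and 5.15 TPM (day 6) and 0.833, 3.26 and 5.44 TPM (day 9), all within or near the uninjured range of 1.52 to 9.74 TPM. At day 14 it was at 38.7, 14.8 and 31.5 TPM and at day 20 at 17.9, 19.1 and 26.1 TPM, above every uninjured sample. The differences of 2.35 (SE 0.56, limma adjusted p = 0.0589) and 2.03 (SE 0.51, adjusted p = 0.0932) were not called. The first was called without mouse 4 (adjusted p = 0.0471) and with trimmed-mean scaling (0.0492), and both were with all samples in 1 fit (3.32e-04 and 0.00275) and on the coding transcript Muc1-201 alone (0.00907 and 0.0301). In anus, 0 of the 3 members other than Muc20 were called at day 3 (0.044% of all genes, or 6 genes). Of these, Muc4 alone had an unadjusted p under 0.05. At day 6 Muc13 was called and Muc1 was not, where 15% of genes were called. The counts were 2 of 4 at day 9 (5.09%), 3 of 4 at day 14 (4.27%) and 1 of 4 at day 20 (1.46%). The summed squamous markers of anus had medians of 12054, 10716, 17748, 18811, 17501 and 23693 TPM on days 0, 3, 6, 9, 14 and 20. Within the sum, group means from day 6 to day 14 went from 9001 to 3686 TPM for Krt14, a basal cell keratin, and from 3141 to 6595 TPM for Krt13 and from 1589 to 2600.1 TPM for Krt4, keratins of suprabasal cells. The part of squamous cells in the Muc4 and Muc20 values was not tested.

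The anal and rectal responses were also compared with each other. At day 6 the anal change minus the rectal change was -6.72 (SE 0.62, limma adjusted p = 1.20e-05) for Muc13 and -1.91 (SE 0.65, adjusted p = 0.0498) for Muc1. Both were called, where 21.5% of all genes tested were. For Muc4 it was -3.51, given without a test because it rests on the anal samples of day 6, for which Muc4 is given none. Muc20 stood at a mean of 0.103 TPM in rectum at day 0 and 0.121 TPM at day 6, so its difference between the sections is that of anus and is given no test. The Muc1 value stood at the threshold: with the mouse as a block its adjusted p was 0.0674, with a pseudocount of 0.1 0.0811 and with no filter 0.0929, and it held only without mouse 3 among the 7 mice left out in turn (range 0.0258 to 0.198). At day 9 the differences were -6.79 (SE 0.60, adjusted p = 5.59e-06) for Muc13 and -2.70 (SE 0.38, adjusted p = 1.88e-04) for Muc4, while that of Muc1 was not called (-1.03, SE 0.72, adjusted p = 0.363). Thus 2 of these 3 members were called, where 19.9% of genes were.

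The squamous neo-epithelium held all 4 members, and their levels changed from day 9 to day 20. Muc13 was at 96.2, 1.07 and 18.3 TPM in mice 11, 12 and 13 at day 9, at 1301, 217 and 395 TPM in mice 14, 15 and 16 at day 14, and at 1352, 534 and 1060 TPM in mice 17, 18 and 19 at day 20. Every sample of days 14 and 20 exceeded those of day 9, and the difference between days 20 and 9 was 5.87 (SE 1.29, limma adjusted p = 0.0199). Muc4 was at 4.47, 20.6 and 12.8 TPM at day 9, at 54.2, 220 and 119 TPM at day 14 and at 69.0, 175 and 40.8 TPM at day 20 (day 20 against day 9, 2.77, SE 0.66, adjusted p = 0.0259). The 14-day mean of Muc4 was 10.4-fold that of day 9, and its samples ranged widely, with mouse 15 the highest and mouse 14 the lowest. Of the 4 members 2 were called between days 20 and 9, where 26.2% of genes were; Muc4 was lost without mouse 11, 13 or 17 (up to 0.0798), with no filter (0.0576) and on its most abundant transcript alone (0.127), and Muc13 without mouse 13, 17 or 19 (up to 0.0731).

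Muc1 and Muc20 in neo-epithelium varied with Muc4 across the samples. Muc1 was at 7.82, 20.9 and 22.3 TPM at day 9, at 37.3, 81.7 and 75.2 TPM at day 14 and at 39.3, 63.1 and 18.7 TPM at day 20 (day 20 against day 9, 1.17, SE 0.53, limma adjusted p = 0.149). Muc20 was at 2.85, 7.23 and 6.55 TPM, then 8.64, 38.0 and 26.8 TPM, then 14.4, 31.1 and 7.34 TPM (1.37, SE 0.53, adjusted p = 0.0988; called without mouse 19, at 0.0426, and with all samples in 1 fit, at 9.24e-04). Mouse 15 at day 14 and mouse 18 at day 20 were the highest of their day in Muc1, Muc4 and Muc20 and the lowest of it in Muc13. Over the 9 samples Pearson's r of log2 values was 0.948 for Muc1 with Muc4, 0.964 for Muc1 with Muc20 and 0.956 for Muc4 with Muc20, but 0.511 for Muc13 with Muc4. The samples share the day, so these are descriptions. Median sums of colonocyte markers in neo-epithelium were 78, 467 and 2723 TPM at days 9, 14 and 20, and those of goblet markers 46, 1659 and 6614 TPM, against 31318, 17718 and 22313 TPM for squamous markers. Samples labelled as squamous neo-epithelium at the later days thus held glandular transcripts beside squamous ones, and the part of these in the Muc13 values was not tested. Neutrophil markers fell from a median of 17394 TPM at day 9 to 1042 TPM at day 20. Their sum already had a median of 524 TPM in uninjured anus against 2.94 TPM in uninjured rectum. Leukocyte markers were alike there, at 12.5 and 11.0 TPM. The part of neutrophils in this sum in squamous sections was not tested.

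Against the rectum of the same 9 mice, with day in the fit, Muc20 was higher in neo-epithelium in 9 of 9 mice. Its rectal values over these days were lowest at 0.196, median 0.339 and highest at 1.99 TPM, against 2.85, 8.64 and 38.0 TPM in neo-epithelium. Muc13 was lower in 9 of 9 mice (limma log2 difference -3.46, SE 0.80, adjusted p = 0.00202), and its mean was 49.4-fold lower at day 9, 4.00-fold lower at day 14 and 1.98-fold lower at day 20. Taken by day, that difference was called at day 9 (-6.90, adjusted p = 0.00571) and day 14 (-2.39, adjusted p = 0.0457) and not at day 20 (-1.08, adjusted p = 0.127). Muc1 was higher in 8 of 9 mice (0.85, SE 0.31, adjusted p = 0.0343), a call lost without mouse 15, 16, 17 or 18 (up to 0.0988) and with no filter (0.0561). By day its difference was -0.20 at day 9 (adjusted p = 0.737), 1.21 at day 14 (adjusted p = 0.0466) and 1.55 at day 20 (adjusted p = 0.126). Muc4 was higher in 6 of 9 mice, the 3 mice of day 9 being lower, and was not called (0.84, SE 0.44, adjusted p = 0.142; called without mouse 11, at 0.0383, and with all samples in 1 fit, at 0.00456). Its difference by day was -0.95 at day 9, 1.71 at day 14 and 1.75 at day 20, with adjusted p of 0.217, 0.0568 and 0.122. Of the 3 members other than Muc20, 2 were called, where 42% of genes were.

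Against the anus of the same mice, Muc13 and Muc1 were higher in neo-epithelium and Muc4 and Muc20 were not called. Muc13 was higher in 8 of 9 mice (limma log2 difference 3.51, SE 0.71, adjusted p = 5.43e-04). Its anal values over these days were lowest at 1.03, median 31.4 and highest at 212 TPM, against 1.07, 395 and 1352 TPM. Muc1 was higher in 7 of 9 mice (1.37, SE 0.32, adjusted p = 0.00175). Muc4 (0.61, SE 0.32, adjusted p = 0.112) and Muc20 (0.46, SE 0.29, adjusted p = 0.177) were each higher in 7 of 9. Muc4 was called without mouse 14 (adjusted p = 0.0441), and with all samples in 1 fit both were (0.0329 and 0.0323). Taken by day, Muc1 was called at day 9 (2.16, adjusted p = 0.0159) and not at day 14 (1.19, 0.0712) or day 20 (0.77, 0.257). Muc13 was called at day 14 (4.87, adjusted p = 0.0153) and day 20 (3.50, 0.0182) and not at day 9 (2.16, 0.21). Muc20 was called at day 9 alone (1.01, adjusted p = 0.0379), and Muc4 on none of the 3 days. Thus, over all days, 2 of 4 members were called, where 58.5% of genes were. On days 14 and 20 Muc4 spanned 40.8 to 220 TPM in neo-epithelium and 34.7 to 99.8 TPM in anus, and Muc20 spanned 7.34 to 38.0 TPM and 10.6 to 19.7 TPM, so that the sections overlapped in both.

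Muc4 and Muc20 moved together within the anal section although they lie on opposite strands. In the 19 anal samples Pearson's r of their log2 values was 0.966. It was 0.764 in the 19 rectal and 0.642 in the 19 mid-colonic samples, where Muc20 reached at most 1.99 TPM. Samples of a section share the day as a source of likeness. Over the 21 group means r was 0.684, beside 0.693 for Muc1 with Muc4, so that the likeness was not particular to this pair. Because the genes overlap at their 3' ends, reads of one could be counted for the other if the counting did not use strand. The library kit keeps strand, but whether the authors' quantification used it is not given in the sources used here. The transcript Muc20-201, which carried 93.5% of the Muc20 estimate summed over all samples, shares 0 exonic bases with any Muc4 transcript. The other, Muc20-202, shares 381 bases with each of Muc4-201, Muc4-202, Muc4-205 and Muc4-206 (28.3% of the length of Muc4-202, the most abundant of them), and holds the short Muc4-203 and Muc4-208 whole. It was at a mean of 1.01 TPM in anus at day 14, against 16.3 TPM for Muc20-201. In rectum, where both were low, Muc20-202 had the higher mean at days 0, 3, 6 and 9 (0.179 against 0.0652 TPM at day 9). Muc20-201 had the higher mean there at days 14 and 20 (0.835 against 0.260 TPM at day 14). In mid-colon Muc20-202 was the higher from day 6 on. The level ratio of the genes also differed between sections: mean Muc4 in rectum at day 14 was 34.2 TPM beside 1.10 TPM of Muc20, and in anus 92.7 TPM beside 17.3 TPM. An antisense gene, Gm15657, likewise overlaps the start of Muc13 by 2838 bases on the other strand.

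**Figure D5:**
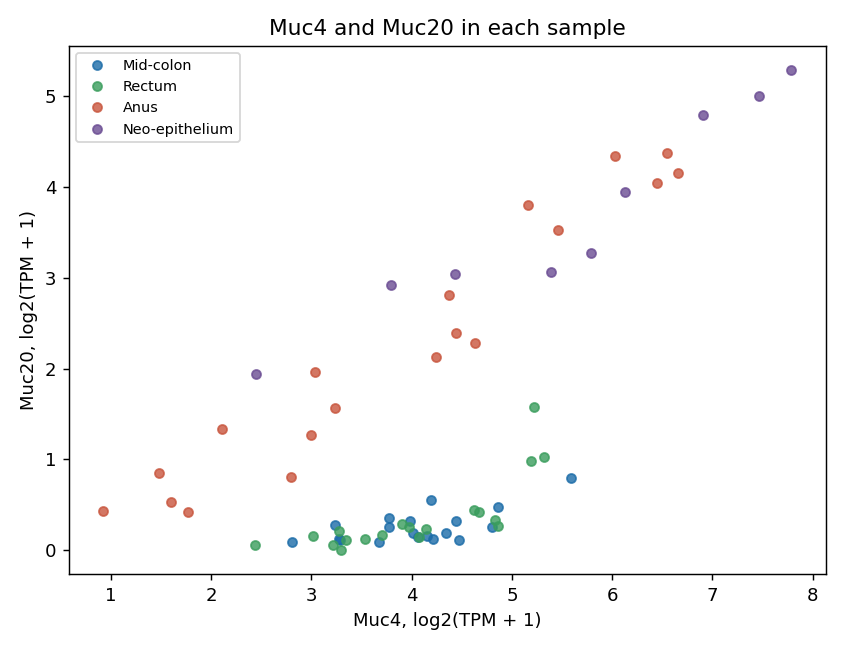
Muc4 against Muc20 in each of the 66 samples, both as log2(TPM + 1), coloured by section. Anal and neo-epithelial samples form a rising band in which Muc20 reaches 38.0 TPM, and mid-colonic and rectal samples lie near 0 on the Muc20 axis, with at most 1.99 TPM.

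Within genes the estimate was spread over few transcripts. Muc13-202 carried 81.3% of the Muc13 estimate and Muc13-201 18.7%, and these 2 transcripts share 2873 exonic bases, so that their split is uncertain. In rectum Muc13-202 was at a mean of 1296 TPM at day 0 and 2916 TPM at day 6, and Muc13-201 at 358 and 536 TPM. Muc1-201, the coding transcript, carried 71.0% of the Muc1 estimate and was at 9.65 TPM in rectum at day 0 and 26.7 TPM at day 6. Of the Muc4 estimate, 36.1% was on Muc4-202 and 32.8% on Muc4-206, both annotated as processed transcripts, and 23.3% on the coding Muc4-205. In anus Muc4-205 was at 6.61, 0.308 and 24.4 TPM on days 0, 6 and 14, the same course as the gene as a whole.

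Ordered by group mean, Muc13 ran from 3536 TPM in mid-colon at day 6 to 3.34 TPM in anus at day 9. Its 12 highest groups were all the mid-colonic and rectal ones, and neighbours in the order overlapped in range except at 3 steps: rectum at days 6 and 14, uninjured mid-colon and neo-epithelium at day 20 (982 TPM), and anus at days 0 and 20. Muc1 ran from 64.7 TPM in neo-epithelium at day 14 to 3.18 TPM in anus at day 9, and each group overlapped in range with its neighbour in the order. Muc4 ran from 131 TPM in neo-epithelium at day 14 to 1.57 TPM in anus at day 6, its highest groups being neo-epithelium at days 14 and 20 and anus at day 14. Its neighbours overlapped except for anus at days 14 and 20, mid-colon at day 20 and rectum at day 6, and anus at days 3 and 6. Muc20 ran from 24.5 TPM in neo-epithelium at day 14 to 0.0507 TPM in rectum at day 3. Its 7 highest groups were anal or neo-epithelial, and the anus of day 20 (14.2 TPM) did not overlap with the neo-epithelium of day 9 (5.54 TPM) next below it, nor the anus of day 0 with that of day 9.

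Likeness in pattern was measured as Pearson's r of log2(TPM + 1) over the 21 group means, among 14339 genes. The genes most like Muc13 were Dmbt1 (r = 0.997), which encodes a secreted scavenger receptor-like glycoprotein, Ms4a8a (0.996) and Cdh17 (0.994), the liver-intestine cadherin and one of the colonocyte markers used here. Those most like Muc20 were Mroh4 (0.971), Wdr72 (0.970) and Enpp3 (0.961). Likeness was weaker for Muc1, whose nearest were Ly96 (0.891), Acadl (0.876) and Samd9l (0.852), and for Muc4, whose nearest were Grpel2 (0.882), Rab27a (0.864) and Omp (0.857). Among the members Muc1 and Muc4 were most alike (0.693), and Muc13 and Muc20 were inverse (-0.496). The groups share sections, days and control mice, so that these values are descriptions.

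Other mucins and the genes that decorate or regulate mucins were described for the same comparisons. The secreted mucin Muc2 rose at day 6 in rectum (limma log2 difference 1.18) and mid-colon (0.94) beside Muc13 and Muc1, and fell by 3.83 in anus. Of 20 O-glycan enzymes tested in rectum at day 6, 9 were higher and 4 lower, where 11.5% of all genes were higher and 37.2% lower, with a median of 0.16 beside -0.27 over all genes. Galnt3, which adds the initiating sugar, rose by 0.90 there, C1galt1, which extends it to core 1, by 0.66, and Fut2, which adds terminal fucose, by 1.05, whereas St6galnac2, a sialyltransferase, fell by 1.41 (its symbol stands on 2 gene identifiers, and the more abundant is used here). In anus at day 6, 2 of 18 were higher and 7 lower (8.64% and 6.37% of all genes, median -0.81 beside 0.07), among them B3gnt7 at -3.62. In uninjured anus against rectum, 2 of 20 were higher and 18 lower (25.9% and 34.4% of all genes, median -1.86 beside -0.15), and in neo-epithelium against anus 17 of 20 were higher and 0 lower (38.1% and 20.4% of all genes, median 1.07 beside 0.17).

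Among 11 binding partners and sheddases, 2 were higher and 5 lower in rectum at day 6 (median -0.15 beside -0.27), shares near the 11.5% and 37.2% of all genes. The receptor genes Erbb2 and Erbb3 fell by 1.01 and 0.95 there while Egfr rose by 0.69 (limma). At day 6 in rectum 5 of 15 mucin regulators were higher and 6 lower (11.5% and 37.2% of all genes, median 0.12 beside -0.27). Socs3, a feedback target of STAT3 signalling, rose by 4.60 at day 6 and 6.76 at day 9 in rectum and by 3.62 at day 6 in anus. The part of STAT3 signalling in the mucin values was not tested. Osmr, a receptor chain upstream of STAT3, rose by 1.42 in rectum and 1.09 in anus at day 6. Hnf4a, a transcription factor of intestinal epithelium, was at -0.60 in rectum and -4.60 in anus at day 6, both called, and rose by 4.03 between days 9 and 20 in neo-epithelium. Elf3, an epithelial transcription factor, was at 0.26 in rectum (not called) and fell by 2.41 in anus at day 6.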

How the data were processed

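Single-end 75 bp reads of stranded mRNA libraries were quantified by the authors with kallisto after CASAVA base calling, on mm10, per the submitters' processing notes; versions, the transcript index and the strand setting are not given in the sources used here. The deposited signal values are transcript abundances in TPM for 66 samples. Of 126860 rows, 37344 held no values and 1318 repeats of a transcript were dropped; each column then summed to 1000000. TPM was summed per gene (30452 genes), and no depth can be recovered from it. Groups come from the labelled section and day. The members and all gene lists were chosen with earlier results of these data known. Tests used limma 3.58.1 (R 4.3.3; lmFit, eBayes with trend) on log2(TPM + 1) of the groups compared, with genes at 1 TPM or more in as many samples as the smallest section-day group, and Benjamini-Hochberg adjustment over all genes tested. Muc20 did not pass this filter in mid-colon or rectum, and it is described without a test there and wherever it passed only through the group in which it was high. Muc4 in anus at day 6 is given no test for the same reason. Its anal minus rectal response at day 6 is given none because it rests on those samples. Comparisons of neo-epithelium with another section had day as a term. Figures used matplotlib 3.10.9, and promoter motifs were searched in RefSeq windows (GRCm38.p6); locations come from GENCODE M21. Simulated data took the noise of both groups from the day 0 spread, and 100 genes, none of them low, were changed by each size. On these the fit recovered 87% of genes changed by log2 1 and 100% changed by log2 2 for rectum at day 6 (12459 genes). For anus at day 14 (13653 genes) it recovered 25% and 76%. Of the calls, 6% and 8.2% were of unchanged genes. These rates belong to that setting, in which fewer genes change than were called in the real comparisons. Labels say that sections with 1 mouse number come from 1 mouse; the mean correlation of deviations of sections of a mouse was 0.291 for rectum with mid-colon, 0.099 for anus with rectum, 0.043 for anus with mid-colon, 0.25 for neo-epithelium with rectum and 0.153 for neo-epithelium with anus, so the mouse was tried as a block. Named genes were the members, genes of the fixed lists and, per member, the 3 genes of highest Pearson's r. Other alternatives were a pseudocount of 0.1, no filter, a filter at 5 TPM, trimmed-mean scaling, all samples in 1 fit, each mouse left out, each day alone and, added after the data were seen, the most abundant transcript alone.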

Additional observations from a re-analysis of the deposited data

Results flagged for a closer look

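Muc1 in uninjured mid-colon had 1 low sample, mouse 4 at 9.16 TPM against 15.7 to 16.5 TPM in the others; the gap to the nearest was 0.887 of the whole range, above the critical value of 0.829 for 4 samples. Muc13 in uninjured anus had 1 high sample, also mouse 4, at 691 TPM against 264 to 279 TPM, a gap of 0.964 of the range. Chance alone sets apart about 1 in 20 groups by this measure.

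The responses to DSS differed between anus and rectum by a direct test of the difference in limma. At day 6 the anal change minus the rectal change was -1.91 for Muc1, -3.51 for Muc4, -6.72 for Muc13 and -1.82 for Muc20 (log2). At day 9 it was -2.70 for Muc4, -6.79 for Muc13 and -0.95 for Muc20. The Muc20 values, -1.82 at day 6 and -0.95 at day 9, and the Muc4 value of day 6 are given without a test. Muc20 passed the filter on low values only through anus. Its means in rectum were 0.103, 0.121 and 0.245 TPM on days 0, 6 and 9.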

How the results depend on the processing

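Counts are members called, with the value above in brackets, and Muc20 is left out where it is given no test. In 1 fit of all samples, counts were 1 (2) in mid-colon at day 6 and 0 (1) at day 9. In rectum they were 1 (2) at day 6, 1 (3) at day 14 and 0 (1) at day 20. In anus at day 20 the count was 3 (1), and for neo-epithelium against anus it was 4 (2). That fit also called Muc4 in anus at day 3. A filter of 5 TPM gave 2 (1) in mid-colon at day 9 and 2 (1) in anus at day 20. No filter gave 0 (1) in rectum and in anus at day 20 and 1 (2) in neo-epithelium between days 20 and 9. Trimmed-mean scaling gave 1 (0) in mid-colon at day 14 and 0 (1) in anus at day 20. The most abundant transcript gave 1 (0) in mid-colon at day 14, 0 (1) in rectum at days 9 and 20, 2 (1) in anus at day 20, 1 (2) in neo-epithelium and 1 (0) in rectum between days 20 and 9. Single days gave 1 (2) for neo-epithelium against anus at days 14 and 20. Against rectum, Muc13 and Muc1 were called over all days. There day 9 alone gave a call of Muc13 only, and day 20 alone gave no call. The cause of these shifts was not tested. A pseudocount of 0.1 moved 0 of 28 counts by more than 1.5 times and lost 1 call, of Muc1 in the anal minus rectal response at day 6 (-2.02, adjusted p = 0.0811). No filter also lost calls of Muc1 in rectum at day 14, in anus against rectum, in neo-epithelium against rectum and in that response, and of Muc13 in anus at day 14.

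Leaving out each mouse gave 0 to 2 in anus at day 20, 0 to 2 in mid-colon at day 14 and 1 to 2 at day 9. It gave 0 to 2 in neo-epithelium between days 20 and 9. In rectum it gave 0 to 1 at day 3, 1 to 2 at day 9 and 0 to 1 at day 20. For anus against mid-colon, only Muc13 was called whichever mouse was left out, and in rectum at day 14 only Muc4 was. Muc20 is left out of both, as it is given no test there.

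Signs turned only in log2 differences that were not called, apart from Muc1 of neo-epithelium against rectum. With trimmed-mean scaling these were Muc13 in mid-colon at day 3 (-0.01), in rectum at day 9 (-0.06) and between these sections at day 0 (-0.22), Muc4 in mid-colon at day 6 (0.12) and between days 20 and 9 (0.02), and Muc1 in the rectal minus mid-colonic response at day 9 (-0.05). With the most abundant transcript they were Muc1 in anus at days 3 (0.19) and 9 (0.05), in mid-colon between days 20 and 9 (-0.37) and in that response (-0.25), and Muc4 in mid-colon between days 20 and 9 (0.03). At day 9 alone neo-epithelium against rectum was -0.20 for Muc1 and -0.95 for Muc4. Leaving out each mouse, ranges spanning 0 were -0.30 to 0.08 for Muc4 in mid-colon at day 6, -0.13 to 1.10 for Muc1 and -0.04 to 0.18 for Muc13 at day 20, -0.08 to 0.32 for Muc1 in rectum at day 3 and -0.47 to 0.15 at day 20, -0.50 to 0.20 in anus at day 3, -0.24 to 0.40 for Muc4 and -0.12 to 0.21 for Muc13 in rectum between days 20 and 9, -0.61 to 0.63 for Muc1 and -0.31 to 0.02 for Muc4 in mid-colon between these days, -0.18 to 0.07 for Muc1 and -0.17 to 0.13 for Muc13 in the rectal minus mid-colonic response at day 6, and -0.21 to 0.17 for Muc1 at day 9.

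With the mouse as a replicate block, the call of Muc4 in anus against mid-colon (0.61) was lost. So was that of Muc1 in the anal minus rectal response at day 6 (-1.91). The 36 differences fitted include Muc20 where it is given no test and Muc4 in that response, and among the rest no other call was lost. Trimmed-mean scaling moved the median gene of rectum at day 6 from -0.27 to -0.03, and there Muc13 was at 1.34 and Muc1 at 1.81. Over all genes it moved 8 of 28 counts by more than 1.5 times, no filter 15, 1 fit of all samples 14, a filter of 5 TPM 4 and the block 3 of 10. TPM without depth gives no counting error, 3 or 4 mice a group limit the precision, and Muc20 in colon lies too low to test.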
